A study of Mus musculus with 11 samples.

Results

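The genes described here encode the enzymes that make, spare or break down the substrate, the inhibitor and the cofactor of nitric oxide synthase. There were 8 of them, read by 12 of the 55681 probes on the arrays: Ass1, Asl, Ddah1, Ddah2, Gch1, Pts, Spr and Qdpr. They were chosen by gene symbol for their place in these pathways, with earlier results of these data known. RNA of the descending aorta was measured on 1-color Agilent arrays in male C57BL/6 mice aged 20 months. The old nitrate treated mice (5 arrays) had 1 g/L NaNO3 in their drinking water for 8 weeks, and the old control mice (6 arrays) carry the agent label control. All mice were wild type and ate standard chow. The labels describe each control array as a renewed analysis of an older sample and name no salt for the control water, while the methods of the study name sodium chloride, so what the control mice drank, and whether both groups were kept together, is not settled here. A treatment text that names NaNO3 is attached to the control arrays too, while the agent labels, sample titles and source names all separate the groups. Only male mice at a single age were measured, and the labels speak of 6 mice in each group, of which 5 nitrate arrays were analysed here. The aorta was taken whole after fat was removed, and in such tissue fewer cells of a type and less RNA per cell cannot be told apart.

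Nitric oxide synthases turn L-arginine and oxygen into nitric oxide and citrulline, and nitric oxide made in the endothelium relaxes the smooth muscle of the vessel wall. Argininosuccinate synthase and lyase rebuild arginine from citrulline. Asymmetric dimethylarginine (ADMA), released from methylated proteins, inhibits the synthases and is degraded by the dimethylarginine dimethylaminohydrolases. Tetrahydrobiopterin is the cofactor that holds the synthase in its coupled state, and without enough of it the enzyme releases superoxide instead of nitric oxide. It is made from GTP in consecutive steps by the products of Gch1, Pts and Spr, and its quinonoid dihydro form is reduced again by the product of Qdpr.

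The probes behind the results are shown first, because the 2 genes past the unadjusted threshold were each read by a pair of probes of their own. The following are probe letters from the array files, 5′ to 3′, and positions are those of the files in mm9. The opening 30 of 60 bases are printed, and no base is marked.
Ass1 main probe, chr2:31376068-31376127, plus strand: cccccacagcttttgttccctggtccccta
Ass1 second probe, chr2:31375998-31376057, plus strand: tgttgtgataaatttgtaattgtagcttgt
Qdpr main probe, chr5:45825474-45825533, minus strand: tcagtttttggcatttggggtactttgaaa
Qdpr second probe, chr5:45825799-45825858, minus strand: tggtaaccacagatgggaagacagagctta
The intervals of the Ass1 probes lie 10 bases apart and those of the Qdpr probes 265 bases apart, so within each gene the probes share no base but read neighbouring sequence of the same RNA. They are therefore not independent evidence of a change in the gene. Exon and UTR borders in mm9 were not analysed here.

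The tables used give the stretch from 250 bases before to 50 bases after the start in RefSeq (GRCm38.p6) for 7 of the 8 genes. Those of Ass1 and Qdpr are printed because they belong to the only members past the threshold. Capitals mark matches on either strand to an E-box (CACGTG), a GC box (GGGCGG) or a CCAAT box (CCAAT, which reads ATTGG on the other strand), and the core of the antioxidant response element (TGACNNNGC) was searched as well.
Ass1, chr2:31470020-31470319, plus strand: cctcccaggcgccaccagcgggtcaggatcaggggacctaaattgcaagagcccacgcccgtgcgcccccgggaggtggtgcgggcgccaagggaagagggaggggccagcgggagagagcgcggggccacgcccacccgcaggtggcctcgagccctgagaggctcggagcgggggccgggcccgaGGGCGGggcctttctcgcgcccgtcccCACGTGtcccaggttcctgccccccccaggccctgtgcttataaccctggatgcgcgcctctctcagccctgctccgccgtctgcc
Qdpr, chr5:45450180-45450479, minus strand: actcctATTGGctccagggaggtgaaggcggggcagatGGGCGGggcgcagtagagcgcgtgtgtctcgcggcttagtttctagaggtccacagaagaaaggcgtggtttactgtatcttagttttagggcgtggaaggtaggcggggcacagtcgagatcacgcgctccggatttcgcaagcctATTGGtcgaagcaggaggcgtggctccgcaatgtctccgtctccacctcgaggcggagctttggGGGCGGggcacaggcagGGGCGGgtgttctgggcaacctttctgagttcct
The Ass1 stretch holds 1 E-box and 1 GC box, and the Qdpr stretch holds 3 GC boxes and 2 CCAAT boxes. GC boxes are not particular to these genes. The stretches of Ddah2 (3), Gch1 (2), Pts (1) and Spr (2) hold them too, and that of Gch1 also holds 1 CCAAT box. The Ddah1 stretch holds no match. Of 32851 promoter stretches of this length, 7.15% hold an E-box, 35.7% a GC box, 37.4% a CCAAT box and 12.4% the antioxidant core. The matches in the printed stretches do not overlap each other. They are letters in a window and were not measured as binding.

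All values below are log2 signals after quantile normalization over the 11 arrays, and a difference is the nitrate mean minus the control mean on that scale. Detection required a spot that the scanner software had found and marked as well above background, on 5 or more arrays of the same group. A gene was called where limma gave its main probe, the brightest detected one, a P value below 0.05 before adjustment. At this threshold 14.5% of the 18294 detected names were called, 8.04% as higher and 6.43% as lower in nitrate treated mice, and 14.4% of all detected probes. After Benjamini-Hochberg adjustment 3 of 23632 detected probes (0.0127%) passed, and none of them belonged to the genes described here.

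Of the 8 genes, 7 were detected. Ass1 was called higher, Qdpr was called lower, and Asl, Ddah2, Gch1, Pts and Spr were not called. These 2 of 7 compare with the 14.5% called among all detected names, and with so few genes the shares are given as a description. The median difference of the 7 was -0.09 with 2 of them above 0, against a median of 0.02 over all detected names. Ddah1 was not detected.

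**Figure D1:**
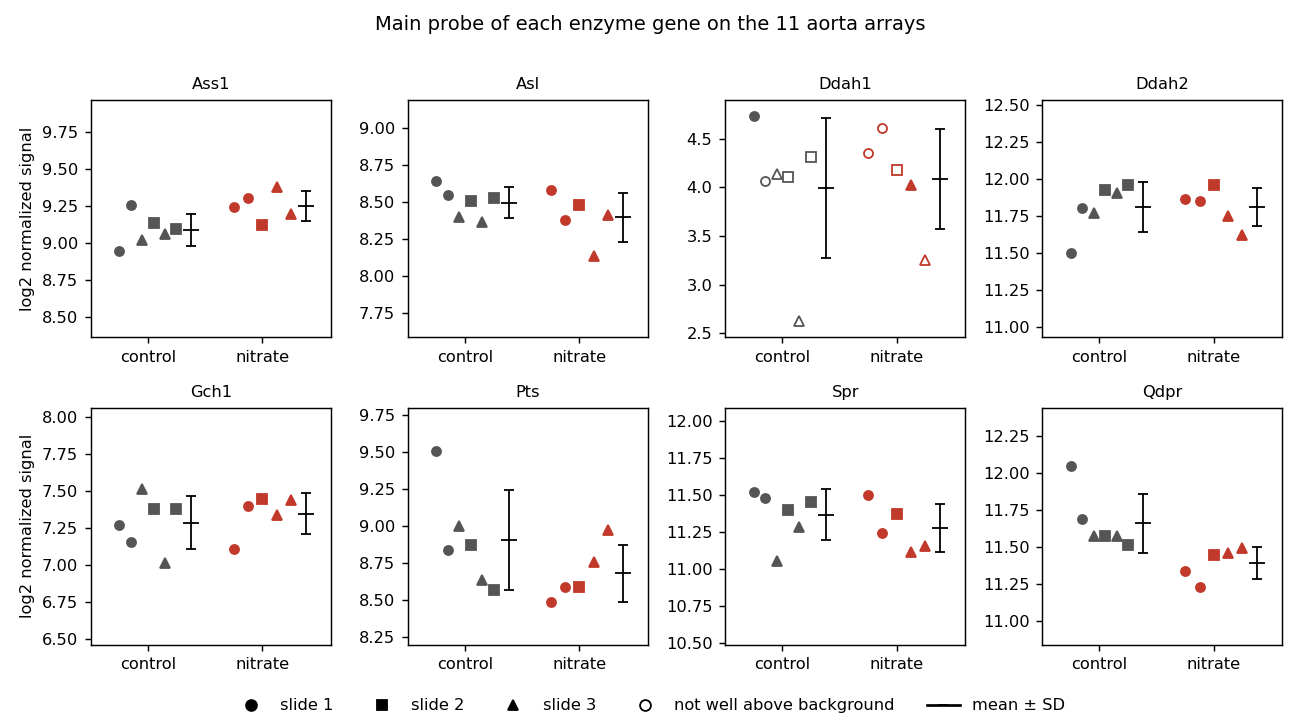
Log2 normalized signal (y axis, a separate range for each gene) of the main probe of the 8 enzyme genes on the 6 control and 5 nitrate arrays. Each point is an array, its shape gives the slide, open points were not well above background, and the bar is the mean ± SD. The groups were apart in Qdpr alone, and most points of Ddah1 are open.

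Qdpr, the quinoid dihydropteridine reductase that recycles tetrahydrobiopterin, was lower in the nitrate treated aortas. Its main probe read 11.34, 11.23, 11.44, 11.46 and 11.49 on nitrate arrays 1 to 5, and between 11.51 and 12.05 with a median of 11.57 on the 6 control arrays. All nitrate arrays lay below all control arrays, and control array 1 was the highest of all. Such a separation of the groups was found in 2.94% of all detected names and in 1 of the 7 detected enzyme genes. The means were 11.39 ± 0.11 (SD, n = 5) and 11.66 ± 0.20 (SD, n = 6), a difference of -0.27 (SE 0.10, limma P = 0.0201, adjusted P = 0.284, two-sided exact permutation p = 0.00433). The exact test ran over the 462 divisions of the arrays and its smallest possible value is 0.00216. In fold terms Qdpr was 1.20 times higher in the control mice.

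The second Qdpr probe gave the same picture. It read 10.52, 10.37, 10.54, 10.50 and 10.55 on nitrate arrays 1 to 5 and between 10.63 and 11.22 on the control arrays, with a median of 10.73, again without overlap. Its difference was -0.30 (SE 0.10, limma P = 0.0124, adjusted P = 0.251, exact permutation p = 0.00649). The lowest control arrays lay close above the highest nitrate array in both probes, so the groups were separated by a narrow gap.

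The arrays came on 3 slides, and both groups were present on each. Within slides the difference of the main Qdpr probe was -0.59, -0.10 and -0.09, and that of the second probe was -0.57, -0.10 and -0.21. Thus both probes were lower on all slides, though slide 2 held a single nitrate array. The size came mostly from slide 1, which carried control array 1. With slide as a block the differences were -0.28 and -0.32, and without control array 1 they were -0.19 and -0.21, all of them still called. The main probe was no longer called without nitrate array 2 (-0.23, limma P = 0.0555) or after median scaling (-0.24, limma P = 0.119), beside the exact permutation p = 0.00433 over all arrays. The second probe also lost its call after median scaling (-0.28, limma P = 0.0851, beside the exact permutation p = 0.00649).

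Ass1, the argininosuccinate synthase that is the slow step in rebuilding arginine from citrulline, was called higher in nitrate treated mice. Its main probe read 9.25, 9.31, 9.12, 9.38 and 9.20 on nitrate arrays 1 to 5, and between 8.95 and 9.26 with a median of 9.08 on the control arrays. The groups overlapped, since control array 2 lay above 3 of the 5 nitrate arrays. The means were 9.25 ± 0.10 (SD, n = 5) and 9.09 ± 0.11 (SD, n = 6), a difference of 0.16 (SE 0.07, limma P = 0.0467, adjusted P = 0.341, exact permutation p = 0.0346). This is a 1.12-fold higher signal with a 95% interval that begins just above no difference.

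The second Ass1 probe read 8.42, 8.38, 8.47, 8.53 and 8.19 on nitrate arrays 1 to 5 and between 7.89 and 8.43 on the control arrays, with a median of 8.11. Its difference was 0.24 (SE 0.10, limma P = 0.0343, adjusted P = 0.319, exact permutation p = 0.0455), and its groups overlapped as well. Within slides the main probe differed by 0.17, 0.0018 and 0.25 and the second by 0.12, 0.25 and 0.38. On slide 2, with a single nitrate array, the main probe was thus nearly equal in both groups. The main probe was not called with slide as a block (0.16, limma P = 0.0662, beside the exact permutation p = 0.0346 without the block), and its call held in 2 of the 11 fits that left out an array, those without nitrate array 3 or control array 2. The second probe was called with slide as a block (0.25) and in 3 of the 11 fits, those without nitrate array 5, control array 2 or control array 4. Both probes were higher in nitrate treated mice under all alternatives tried.

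**Figure D2:**
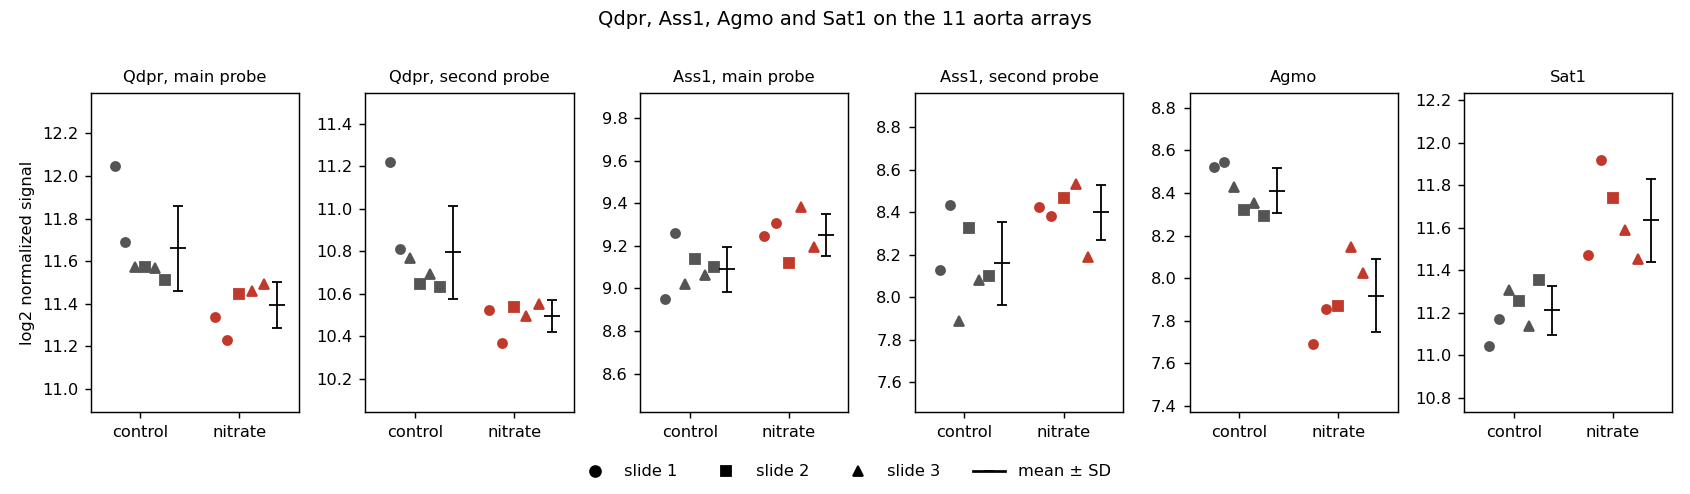
Log2 normalized signal (y axis, a range of equal width in each panel) of the Qdpr and Ass1 probes and of Agmo and Sat1 on 6 control and 5 nitrate arrays. Points are arrays, shapes are slides and bars are the mean ± SD. Both Qdpr probes, Agmo and Sat1 show no overlap between the groups, whereas both Ass1 probes do.

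Asl, the argininosuccinate lyase that follows Ass1 in the same route, was not called. Its probe read 8.58, 8.38, 8.48, 8.14 and 8.41 on the nitrate arrays and between 8.36 and 8.64 with a median of 8.52 on the control arrays. The difference of -0.10 (SE 0.09, limma P = 0.263, exact permutation p = 0.260) had a 95% interval of -0.29 to 0.09, and it ranged from -0.15 without nitrate array 1 to -0.04 without nitrate array 4. Whether the 2 enzymes of the route differed in their response was not tested.

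Among the enzymes that degrade ADMA, Ddah2 was detected and not called, and Ddah1 was not detected. Ddah2 read 11.86, 11.85, 11.96, 11.75 and 11.62 on nitrate arrays and 11.50 to 11.96 with a median of 11.85 on control arrays. Its difference was -0.0026 (SE 0.09, limma P = 0.978, exact permutation p = 0.976) and the 95% interval ran from -0.21 to 0.20. Its sign turned with the array left out, from -0.06 without control array 1 to 0.04 without nitrate array 5. Its spot was well above background on all 11 arrays and marked as not found on 1 nitrate array. The interval leaves room for changes of the size seen in Ass1. The main Ddah1 probe, printed in 10 spots on each array, was well above background on 1 nitrate and 1 control array, and its second probe on 2 and 1. They read 3.26 to 4.61 and 2.91 to 4.57 on nitrate arrays, and 2.62 to 4.74 and 2.42 to 5.18 on control arrays, without separation of the groups.

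**Figure D3:**
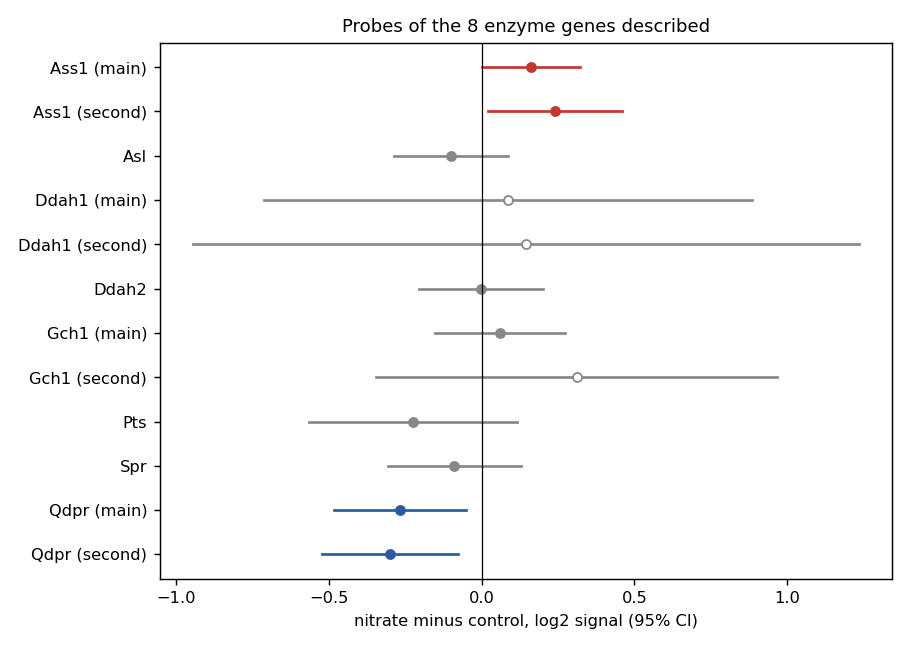
Nitrate minus control difference in log2 signal (x axis) with its 95% interval for the 12 probes of the 8 enzyme genes. Filled points were detected, open points were not, red marks a call as higher, blue a call as lower and grey no call. Both Ass1 intervals lie to the right of 0 and both Qdpr intervals to the left, while the undetected Ddah1 probes have the widest intervals.

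The 3 genes of tetrahydrobiopterin synthesis were detected and not called. Gch1, GTP cyclohydrolase 1, catalyses the entry step. Its main probe read 7.11, 7.40, 7.45, 7.34 and 7.44 on nitrate arrays and 7.02 to 7.51 with a median of 7.33 on control arrays. The difference was 0.06 (SE 0.10, limma P = 0.547, exact permutation p = 0.548) with a 95% interval of -0.15 to 0.27. It ranged from 0.0065 without control array 5 to 0.12 without nitrate array 1. A second Gch1 probe was well above background on 4 nitrate and 3 control arrays and so did not pass the detection rule.

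Pts, the 6-pyruvoyltetrahydropterin synthase of the middle step, had the widest spread among the detected members. It read 8.49, 8.59, 8.59, 8.76 and 8.97 on nitrate arrays and 8.57 to 9.51 with a median of 8.86 on control arrays. The groups overlapped and the highest value was again control array 1. The difference was -0.22 (SE 0.16, limma P = 0.175, exact permutation p = 0.219), and within slides it was -0.64, -0.13 and 0.05, so the slides did not share a direction. Without control array 1 the Pts difference was -0.10. Spr, the sepiapterin reductase of the last step, read 11.50, 11.25, 11.37, 11.12 and 11.16 on nitrate arrays and 11.06 to 11.52 with a median of 11.43 on control arrays. Its difference was -0.09 (SE 0.10, limma P = 0.393, exact permutation p = 0.390) with a 95% interval of -0.31 to 0.13, and ranged from -0.15 without control array 3 to -0.05 without nitrate array 4.

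**Figure D4:**
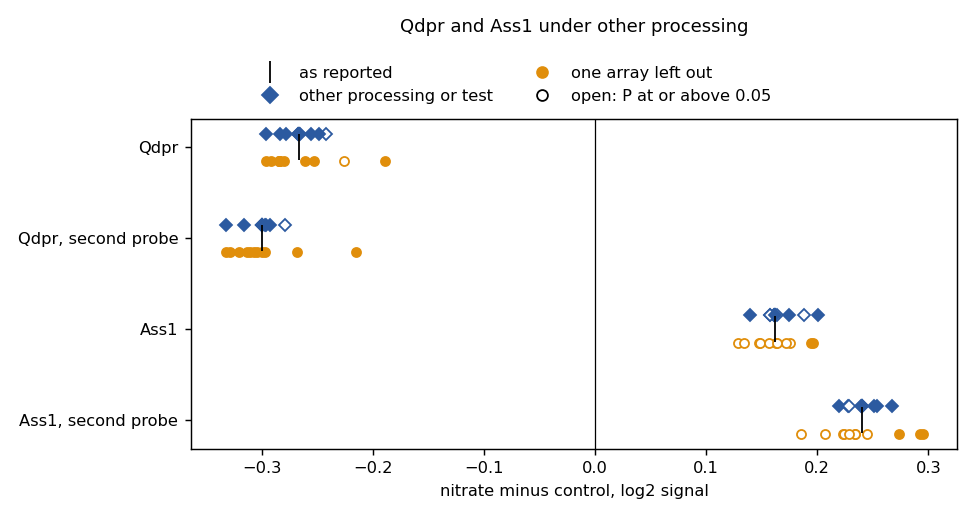
Nitrate minus control difference in log2 signal (x axis) for both probes of Qdpr and Ass1 under the reported processing (black line), other processing or tests (blue diamonds) and with an array left out (orange circles). Open symbols have a P value at or above 0.05. No symbol crosses 0, most Qdpr symbols are filled, and most left-out symbols of Ass1 are open.

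Markers of other cells in the vessel were compared between the groups as well. Their calls stand beside the 14.5% called among all detected names, and with so few markers in a list the counts are a description. All 12 adipocyte markers were detected and lower in nitrate treated mice, 6 of them called, and their summed signal was 275500 to 367600 on nitrate arrays against 357500 to 501300 on control arrays. Adipoq, the fat cell hormone adiponectin, differed by -0.49 and its groups did not overlap. Of 6 brown adipocyte markers 1 was called in each direction, with sums of 102000 to 253100 and 171500 to 299800. Smooth muscle markers were all detected, 7 of 8 were higher and 2 called, with sums of 676400 to 709300 and 539000 to 706000, and Acta2 differed by 0.03. All 8 endothelial markers were detected, 4 higher and 4 lower with 1 called higher, and sums were 21120 to 26050 and 21100 to 24400. Pecam1 differed by 0.18 and was not called. The 6 fibroblast markers were all higher with 2 called (170700 to 212000 and 151400 to 192600), and the 8 macrophage markers on the array were all higher with none called (31000 to 42000 and 28890 to 37890), Cd68 by 0.12. The sums are of signals before the log, so the brightest markers of a list weigh most. Among the macrophage markers, for example, Itgam had a control mean of 14.73 on the log2 scale and Cd68 of 5.03.

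Cardiac muscle markers, 7 of 8 detected and 1 called higher, summed to 3779 to 64170 on nitrate arrays and 2830 to 40440 on control arrays, and Myh6 ranged from 7.14 to 14.64 over all arrays. Lymphocyte markers were detected in 3 of 7 with 2 called lower, and Cd3g, Cd79a and Ms4a1 were among those not detected. Skeletal muscle (3 of 7), erythroid (4 of 5) and nerve markers (4 of 5) had no calls. The part of these marker differences in the values of Qdpr, Ass1 and the other enzymes was not tested. The vessel wall markers thus matched the labelled tissue on every array, and markers of fat and heart were read there as well.

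Over the 11 arrays, the detected genes most alike to Qdpr included Gm10307 (Pearson r = 0.980), Pigy (0.979), C1qtnf9 (0.978) and 4930481A15Rik (0.975). These r values fell to between 0.927 and 0.952 without control array 1. For Ass1 they were LOC100044674 and Krtap4-16 (both 0.910), Rpl7a (0.900), Gm13611 (0.888) and Tmtc1 (0.886). For Pts they were Nudt7 (0.975), Fdx1 and Gm5256 (both 0.972), Polr3g and Slc25a5 (both 0.971). Without control array 1 the r values ran from 0.85 to 0.92 for Ass1 and from 0.92 to 0.93 for Pts. The arrays share slides and normalization, and these correlations describe likeness over arrays only.

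The surrounding pathways were read from 53 further genes, of which 51 were matched on the arrays and 37 were detected. Of these, 3 were called higher and 3 lower, or 16.2%, beside the 14.5% of all detected names. Their median difference was 0.0033 with 19 of 37 above 0. The share called was thus close to that of all detected names.

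Of the nitric oxide synthases themselves, the 2 that were detected include 1 call. Nos2, the inducible form, read 7.06, 7.06, 7.19, 7.30 and 7.34 on nitrate arrays and 7.26 to 7.88 with a median of 7.51 on control arrays, a difference of -0.32 (SE 0.11, limma P = 0.0153, adjusted P = 0.268, exact permutation p = 0.0238). The groups overlapped, and within slides the difference was -0.60, -0.24 and -0.10. The Nos2 call was lost after median scaling (-0.30). Nos3, the endothelial form, read 10.86 to 11.47 and 11.10 to 11.50 and differed by -0.13 (SE 0.11, limma P = 0.273, exact permutation p = 0.305). This difference was -0.05 without nitrate array 3 and -0.21 without nitrate array 5. A second Nos3 probe differed by -0.25 (SE 0.12, limma P = 0.0529, exact permutation p = 0.0693). Nos1, the neuronal form, was not well above background on any array.

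Around tetrahydrobiopterin, Agmo, the alkylglycerol monooxygenase that uses this cofactor to cleave ether lipids (Tmem195 in the files), showed the largest difference among the detected genes of these lists. It read 7.69, 7.86, 7.87, 8.15 and 8.03 on nitrate arrays and 8.29 to 8.55 with a median of 8.39 on control arrays, so the groups did not overlap. The difference was -0.49 (SE 0.09, limma P = 0.000122, adjusted P = 0.0938, exact permutation p = 0.00216, the smallest possible). Within slides it was -0.76, -0.44 and -0.30, and it was called under all 25 alternatives. Gchfr, the feedback regulator that binds GTP cyclohydrolase 1, differed by -0.28 (SE 0.25, limma P = 0.281, exact permutation p = 0.439), with control array 1 at 8.29 and the other arrays at or below 7.09. Without that array the Gchfr difference was -0.04. Pcbd2, a pterin-4a-carbinolamine dehydratase, differed by -0.16 (limma P = 0.0518, exact permutation p = 0.00866). Its groups did not overlap, and it was not called in the main comparison but was called in 9 of 25 alternatives, slide as a block among them (-0.16). Pcbd1, Akr1b3 and Cbr1 were not called, and the hydroxylases Th, Tph1 and Tph2, which use the cofactor to make catecholamines and serotonin, did not pass the detection rule. The Th probe exceeded its background on each of the 11 arrays, but its spot was found on too few of them.

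Among the ornithine and polyamine enzymes, 13 of 13 matched genes were detected, 3 called higher and 1 lower, or 30.8%, beside 14.5% of all detected names. Sat1, the spermidine/spermine acetyltransferase that starts polyamine breakdown, read 11.47, 11.92, 11.74, 11.59 and 11.46 on nitrate arrays and 11.05 to 11.36 with a median of 11.21 on control arrays. Its groups did not overlap, and the difference was 0.42 (SE 0.10, limma P = 0.000789, adjusted P = 0.130, exact permutation p = 0.00216), with 0.59, 0.44 and 0.30 within slides. It was called under all 25 alternatives.

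Smox, the spermine oxidase, differed by 0.21 (SE 0.07, limma P = 0.0113, adjusted P = 0.245, exact permutation p = 0.0130). It read 8.08 to 8.32 on nitrate and 7.86 to 8.13 on control arrays, and the groups overlapped slightly. A second detected Smox probe differed by 0.08 (SE 0.08, limma P = 0.337, exact permutation p = 0.348) and was not called, and the mean of both probes differed by 0.15. The call of the main probe was lost after median scaling (0.24). Oat, the ornithine aminotransferase that links ornithine to proline and glutamate, differed by 0.27 (SE 0.11, limma P = 0.0284, adjusted P = 0.308, exact permutation p = 0.0216). Without control array 1, which was the lowest at 11.78, its difference was 0.18 and still called, whereas the call was lost without nitrate array 1, 2 or 3 (0.24, 0.24 and 0.25). Paox, the peroxisomal oxidase of acetylated polyamines, differed by -0.27 (SE 0.12, limma P = 0.0494, adjusted P = 0.346, exact permutation p = 0.0584), and was called in 12 of 25 alternatives. With an array left out, it was called only without nitrate array 5, control array 4 or control array 6. The enzymes that make polyamines, Odc1, Srm and Sms, were not called.

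**Figure D5:**
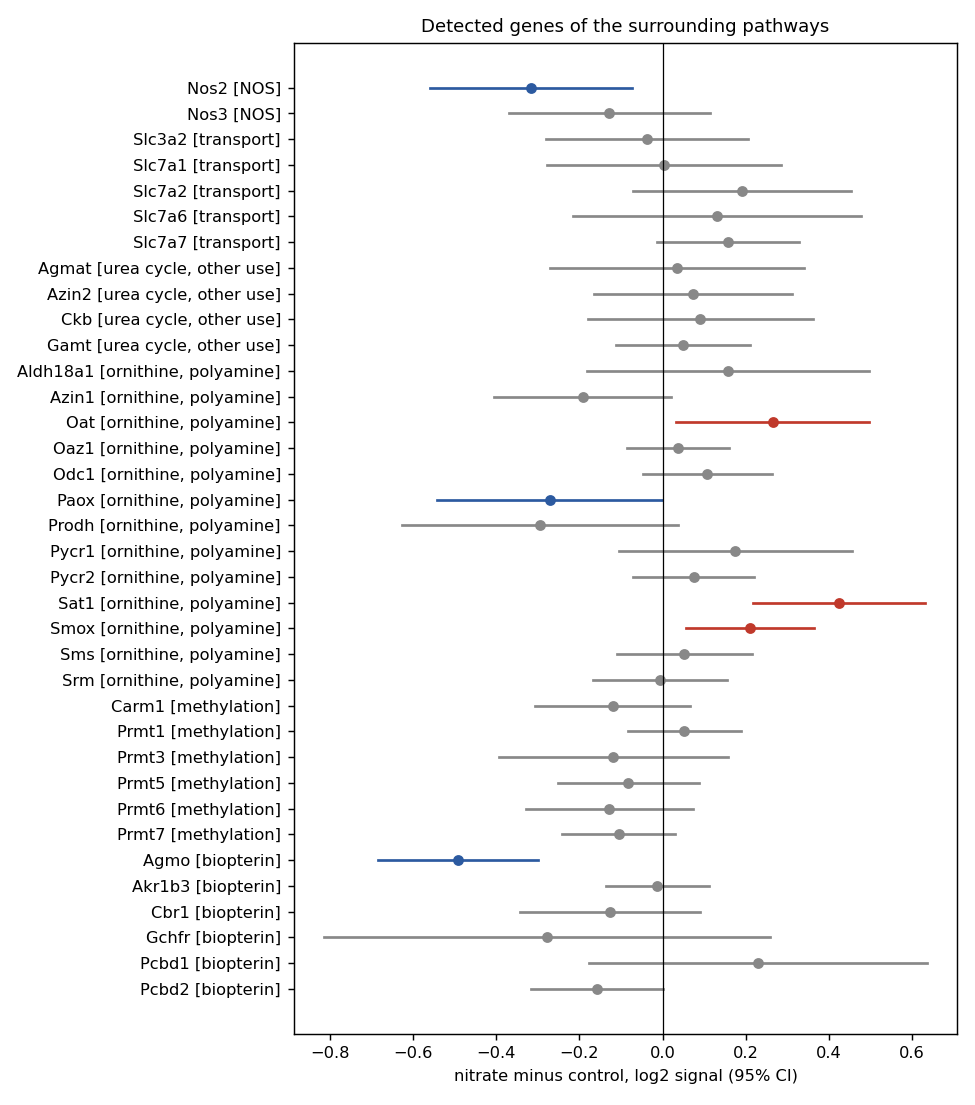
Nitrate minus control difference in log2 signal (x axis) with its 95% interval for the main probes of 36 of the 37 detected pathway genes, each with its list in brackets. Red marks a call as higher, blue a call as lower and grey no call. Agmo lies farthest to the left at -0.49 and Sat1 farthest to the right at 0.42.

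No gene of arginine transport (5 detected of 6), of the urea cycle and other arginine use (4 of 9) or of arginine methylation and ADMA removal (6 of 9) was called in the main comparison. Slc7a2 of the transport list was called with slide as a block, and other single genes of these lists passed under other alternatives. Slc7a1, the main cationic amino acid transporter, differed by 0.0033 (SE 0.13, limma P = 0.980, exact permutation p = 0.985), and from -0.07 to 0.06 with an array left out. Prmt1, the chief source of asymmetrically dimethylated arginine, differed by 0.05 (SE 0.06, limma P = 0.417, exact permutation p = 0.275). Otc and Cps1, which supply citrulline in the liver and gut, were not detected.

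On the arrays as a whole, 24760 to 28654 probes were well above background and found, at most 186 of 59305 spots were flagged, none was saturated, and the 75th percentile of the signal ran from 188.8 to 254.4. Column 3 of the slides held the 6 control arrays and no nitrate array, so column and treatment cannot be told apart. Control array 1 stood apart on the first principal component (49.6 against -23.2 to 16.2). Arrays are taken as 1 mouse each from the labels, and their number, 5 and 6, limits the precision.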

How the data were processed

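Aorta RNA of old mice was hybridized to 1-color arrays. Per the file headers, the authors extracted spot intensities with Feature Extraction, which subtracts background and does not normalize between arrays. The authors also deposited a table of log2 values. It equals quantile normalized signals centred on each probe's median over the arrays (r = 1 over 23632 probes after centring), so its scale, centring and direction are known, and the column medians lie between -0.0269 and 0. For the values reported, processed signals below 1 were set to 1, control and outlier-flagged spots were left out, and log2 values of a probe's spots were averaged, steps that the study's methods do not state. Quantile normalization and the threshold follow those methods. Their detection rule asks for 5 of 6 replicates as judged by the authors' software, and here flags of the scanner files on 5 arrays of a group stood in for it, so all 5 nitrate arrays were needed in that group. Groups were compared over 11 arrays with lmFit and eBayes (R 4.3.3, limma 3.58.1), fitted on all detected probes, with Benjamini-Hochberg adjustment over them. Undetected probes were fitted with all probes. Single genes were also tested by two-sided exact permutation.

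The main probe of a gene was its brightest detected probe, or its brightest one where none was detected. Of 10 enzyme genes, 8 were named, and the others and some genes of the other lists are not reported here, though they stayed in the fits and counts. Of the pathway lists, genes with an unadjusted P value under 0.05 and Nos1, Nos2, Nos3, Gchfr, Slc7a1 and Prmt1 were named with values, and Pcbd2, Slc7a2, Prodh and the second probes of Nos3 and Smox were added after their values were seen. The 5 most alike genes were taken for the 3 members of smallest P value. Marker genes were listed by cell type. The genes and lists were chosen with earlier results of these data known. Agmo was matched through its older name, and Oaz2 and Amd1 were not matched. The test was checked on simulated data. Alternatives covered scaling, background correction, filters, blocks and leaving out each array.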

Additional observations from a re-analysis of the deposited data

Results flagged for a closer look

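In 6 of 44 sets of values tested, 1 array lay far from its group. For unselected and independent sets chance would give about 2.2. The sets here include genes named because they were called and both probes of Qdpr and Ass1, so the 2 counts cannot be compared. All 6 were control arrays. The measure is the gap to the nearest array as a share of the group's range, with a critical value of 0.625 for 6 arrays. Control array 1 was high in Qdpr (12.05, gap 0.669), in the second Qdpr probe (11.22, gap 0.697), in Gchfr (8.29, gap 0.795) and in Paox (11.57, gap 0.64), and low in Oat (11.78, gap 0.723). The undetected Ddah1 probe was low on control array 5 (2.62, gap 0.682).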

How the results depend on the processing

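The 25 alternatives kept the direction of Qdpr (-0.30 to -0.19) and Ass1 (0.13 to 0.20), and Qdpr was called in 23 and Ass1 in 13 of them. The 2 calls among the 7 detected enzymes became 0 under median scaling, and 1, Qdpr, with slide as a block. Leaving out each array gave 0 to 2 calls, with 0 without nitrate array 2. The 6 pathway calls became 3 (Agmo, Oat and Sat1) under median scaling, 9 with slide as a block (Slc7a2, Pcbd2 and Prodh added), and 4 to 8 with an array left out. The cause was not tested. Replicate numbers did not pair the arrays, since correlations of same-numbered deviations were 0.01, 0.12, -0.14, -0.13 and 0.18, and 1 of 5 nitrate arrays correlated best with its own number. The fit with the replicate number as a block left 1 enzyme call, Qdpr (-0.30), and added Slc7a2 to the pathway calls. Among the same 23632 probes, calls ran from 1821 under median scaling to 4111 with slide as a block, against 3394, and without a filter 4685 of 55681 were called. Over all alternatives, adjusted calls ran from 0 to 8, against 3. Ddah1 lay at background, which limits any statement on it.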
